A study of Homo sapiens with 12 samples.

Results

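These results describe the difference between B4-4 and Vector MCF10-A cells in libraries labelled EDTA. MCF10-A is a line of non-tumorigenic human mammary epithelial cells of basal character. The comparison takes 4 of the 12 RNA-seq libraries of the series, chosen by their labels: B4-4 EDTA 1 and 2 against Vector EDTA 1 and 2. The other 8 libraries are Vector NA, B4-4 NA, Addback NA and Addback EDTA, with 2 libraries each, and they entered the fit for the spread. All cells, controls included, were grown with 5% horse serum, taken off with trypsin, and then kept without serum for 3 hours on poly-HEMA, a coating that cells cannot attach to. Poly(A) RNA was sequenced from each. The labels say neither how B4-4 and Addback were derived from MCF10-A nor whether either line is 1 clone. The meaning of NA and the dose and timing of EDTA are likewise not given. Nothing in the labels says that the 2 libraries of a group came from separate cultures, so the p-values measure the spread between these libraries, which may be technical.

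Integrin beta 4, encoded by ITGB4, pairs only with integrin alpha 6 and binds laminin-332, a basement membrane protein whose chains include those encoded by LAMA3 and LAMB3. On the cell's inner side the pair is linked through plectin to the keratin filaments, and the whole anchor is the hemidesmosome. Epithelial cells held without matrix lose integrin signals and can die by anoikis. EDTA binds divalent cations, which integrins and cadherins need for adhesion. Prominin-2 (PROM2) and nectin-4 (NECTIN4) were followed too, since both have been linked to the clustering and survival of matrix-detached epithelial cells.

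Levels are given as CPM, a gene's reads per 1000000 counted reads of its library, scaled for composition. Fold changes are B4-4 minus Vector on the log2 scale, with the standard error (SE) from edgeR's quasi-likelihood fit, and a gene was called at an adjusted p under 0.05. Library totals ran from 15685376 to 22156173 counts over the 12 libraries and from 19398488 to 22156173 over the 4 compared. The 2 B4-4 EDTA libraries differed from each other with a biological coefficient of variation of 4.12%, the Vector EDTA pair with 9.92%, and the B4-4 NA pair with 21.4%. Vector EDTA 2, B4-4 NA 2 and the Addback libraries carry numbers from another series of library numbers than the rest, and Addback EDTA 2 is labelled with another sequencing lane than every other library. The number of genes called with NA depended on single libraries, as given with the NA comparison. The basal mammary markers were present in every library compared, at a summed level of 9181 and 9392 CPM in Vector EDTA and 12840.0 and 13580.0 CPM. Among leukocyte markers, PTPRC, CD3E, LYZ and CD68 had at most 4 counts in any library, while CD14 and CSF1R passed the filter on low counts, and the list summed to 20.7 and 21.5 CPM in Vector EDTA and 27.7 and 26.8 in B4-4 EDTA. Among other cell types, the 5 tested fibroblast markers summed to 30.8 and 30.7 CPM in Vector EDTA and 16.2 and 15.9 CPM, and 1 endothelial marker, PECAM1, was above the filter on low counts. The part of these cell types in the results was not tested, and fewer cells of a type and less RNA per cell cannot be told apart in bulk libraries.

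With EDTA, 6831 of 15749 genes tested were called between B4-4 and Vector, which is 43.4% of them. Of these, 3611 were higher in B4-4 (22.9%) and 3220 were lower (20.4%); with upper-quartile scaling the balance turned, to 2980 higher and 3823 lower. At least 2-fold differences numbered 1109 higher (7.04%) and 1360 lower (8.64%), and at least 8-fold differences 124 higher (0.787%) and 175 lower (1.11%). The median log2 fold change over all tested genes was 0.0020 and the median size of a change, without its sign, was 0.46. The genes called higher included LAMA3 and LAMB3, kallikreins, cytokines, actin cytoskeleton genes and DNA replication genes, and those called lower included the aryl hydrocarbon receptor targets CYP1A1 and CYP1B1, the serine and asparagine synthesis genes PHGDH, PSAT1 and ASNS, ribosomal proteins and replication-dependent histones. Of the 6831 calls, 3552 held when each library was left out in turn. Leaving out B4-4 EDTA 1 gave 4390 calls and leaving out B4-4 EDTA 2 gave 4383, with 1 library left on that side. For the gene lists below, brackets after the counts give the lowest and highest number of higher or lower calls over the alternatives, where either moved by more than 1.5 times, and how many of the calls were kept when each library was left out in turn. List counts stand beside these shares over all genes tested: 22.9% higher and 20.4% lower with EDTA, and 3.38% and 3.78% with NA. The EDTA effect was called above the NA effect in 14.4% of all genes tested and below it in 12.6%.

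**Figure D1:**
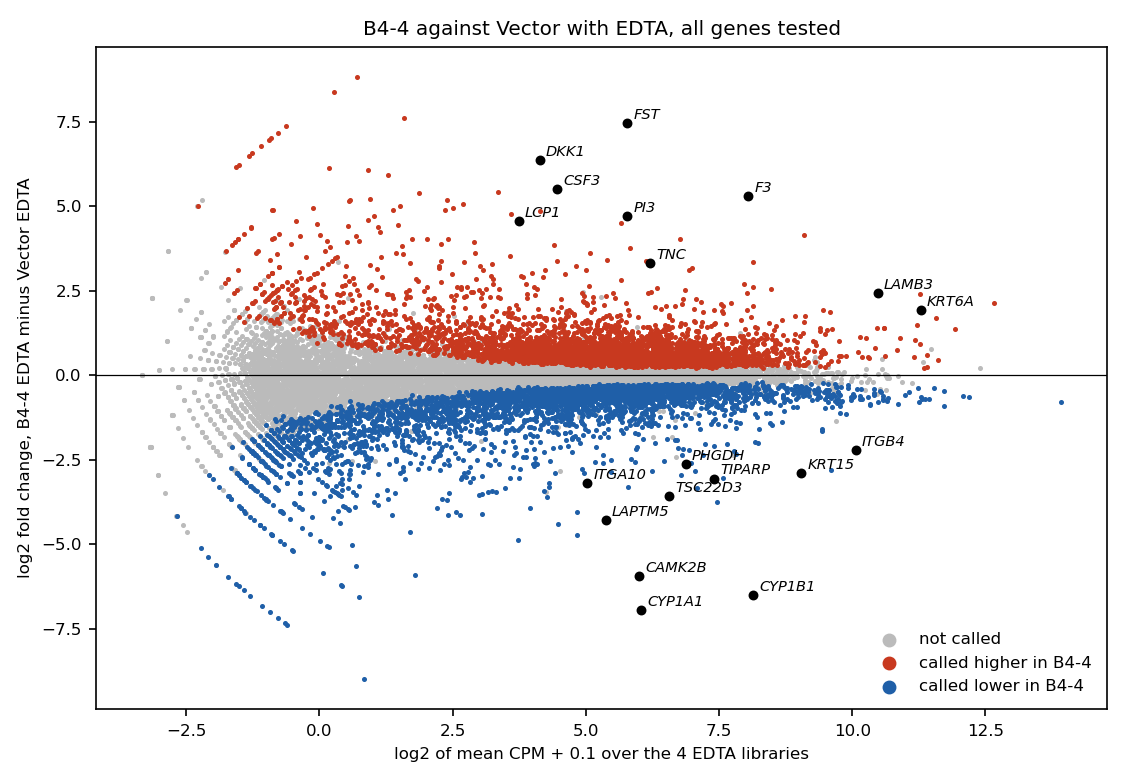
Log2 fold change of B4-4 EDTA against Vector EDTA (vertical axis) by mean level over the 4 libraries (horizontal axis, log2 of CPM + 0.1), 1 point per gene tested, red where called higher, blue where called lower and grey where not called. FST (log2 fold change 7.47) and F3 (log2 fold change 5.31) stand far above 0 at moderate to high levels, and CYP1B1 (log2 fold change −6.51) and CAMK2B (log2 fold change −5.93) far below.

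The gene for integrin beta 4 was lower in the B4-4 libraries than in the Vector libraries. ITGB4 (GRCh38 chromosome 17, 75721328 to 75757818) stood at 1678 and 1850.3 CPM in Vector EDTA and at 372 and 390.0 CPM in B4-4 EDTA, a log2 fold change of −2.21 (SE 0.30, adjusted p = 0.000544). With NA the same 2 derivatives differed by −2.62 (SE 0.30, adjusted p = 0.00334), and the difference of the 2 effects, 0.41, was not called (adjusted p = 0.490). Addback EDTA, at 1264 and 1525 CPM, lay below both Vector EDTA libraries and above both B4-4 EDTA libraries. Its partner ITGA6 was higher in B4-4, at 899.6 and 805 CPM in Vector and 1383 and 1345 CPM in B4-4 (log2 fold change 0.68, SE 0.13, adjusted p = 0.00142).

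LAMA3 and LAMB3 were higher in B4-4 with EDTA. LAMB3 was at 422 and 473 CPM in Vector and 2292 and 2518 CPM in B4-4 (log2 fold change 2.43, SE 0.34, adjusted p = 0.000837), and LAMA3 at 785 and 780.5 against 2061 and 2039.8 CPM (log2 fold change 1.39, SE 0.21, adjusted p = 0.000532). In both genes every B4-4 library was more than 2-fold above both Vector libraries. LAMA3 was named after its values were seen. Upstream of their start sites the RefSeq table (GRCh38.p14) gives the following bases for LAMA3 (chr18:23872770-23873019, plus strand) and 1 of 3 windows of LAMB3 (chr1:209651375-209651624, minus strand), shown because both hold the AP-1 motif TGACTCA, in capitals in either orientation.
LAMA3: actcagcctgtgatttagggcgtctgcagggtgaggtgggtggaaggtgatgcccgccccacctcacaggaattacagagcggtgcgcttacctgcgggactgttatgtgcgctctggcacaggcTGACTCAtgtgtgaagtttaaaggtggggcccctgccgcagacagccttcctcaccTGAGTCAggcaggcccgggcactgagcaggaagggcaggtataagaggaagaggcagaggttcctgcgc
LAMB3: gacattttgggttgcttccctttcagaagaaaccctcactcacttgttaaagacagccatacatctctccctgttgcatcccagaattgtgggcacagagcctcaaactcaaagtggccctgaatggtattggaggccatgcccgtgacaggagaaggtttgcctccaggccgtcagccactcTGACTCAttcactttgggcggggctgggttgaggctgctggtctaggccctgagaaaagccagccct
The LAMA3 window holds the motif at 125 and 69 bases before the start and the LAMB3 window at 67 bases. Of all promoter windows of tested genes, 3.89% hold it on either strand, searched from 250 bases before to 50 bases after the start. A match describes the letters and is no evidence that a factor binds there.

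Other hemidesmosome genes were higher too. The list of hemidesmosome and laminin genes had 11 of 13 tested members called higher and 1 lower (1 to 2 lower, 9 kept), with a median log2 fold change of 0.69; the 1 lower was ITGB4 itself. PLEC, encoding plectin, stood at 932 and 1073 CPM in Vector and 1754 and 1744 CPM in B4-4 (log2 fold change 0.80, SE 0.11, adjusted p = 0.000138). COL17A1, the transmembrane collagen of the hemidesmosome, was at 689 and 719 against 1036 and 1078 CPM (log2 fold change 0.59, SE 0.08, adjusted p = 0.000155). COL7A1, which forms the anchoring fibrils beneath it, differed by 1.22 (SE 0.13, adjusted p = 2.13e-05), and FERMT1, encoding the integrin activator kindlin-1, by 1.102 (SE 0.14, adjusted p = 6.80e-05). With NA the list had none of 13 tested members called higher and 3 lower, with a median log2 fold change of −0.18, PLEC (log2 fold change −0.56) and COL17A1 (log2 fold change −0.34) among the lower. The list's summed level was 10650 and 10610 CPM in Vector NA. In B4-4 NA it was 7058 and 10770 CPM, so those libraries lay apart. In 8 of its 13 members the EDTA value was called above the NA value, beside 14.4% of all genes tested.

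**Figure D2:**
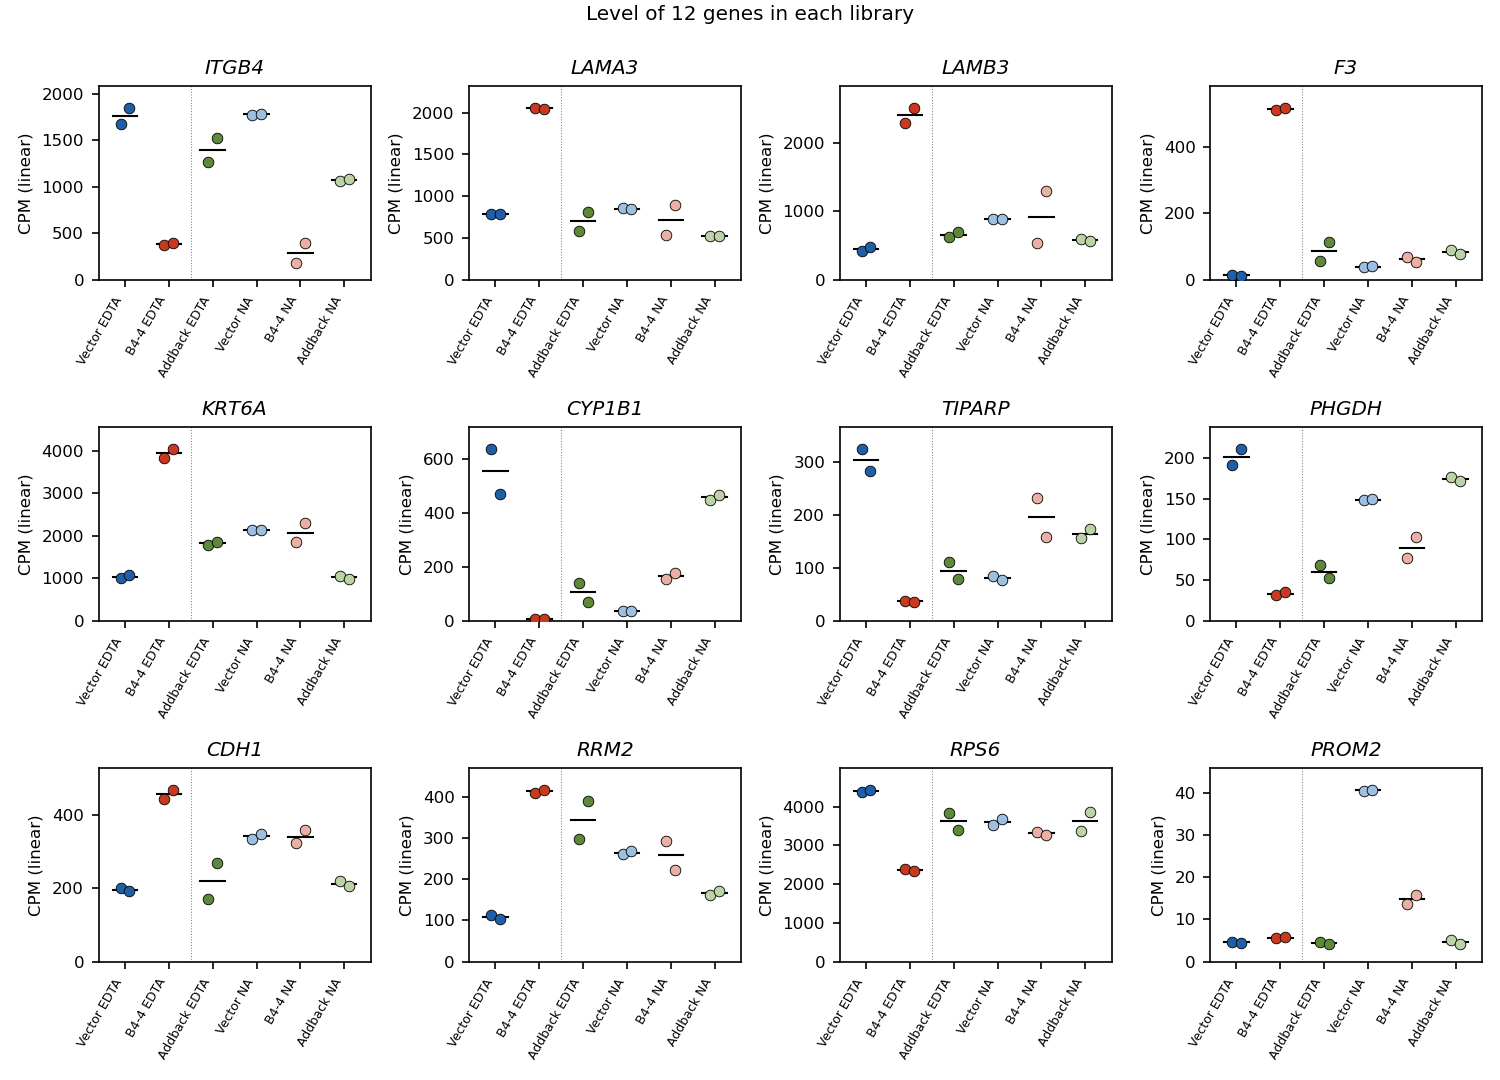
Level in CPM (vertical axes, linear, from 0) of 12 genes, with a point for each of the 12 libraries and a bar for the mean of each pair; the dotted line sets the 2 groups compared apart from the rest. ITGB4, CYP1B1, TIPARP, PHGDH and RPS6 are lower in both B4-4 EDTA libraries than in both Vector EDTA libraries, and LAMA3, LAMB3, F3, KRT6A, CDH1 and RRM2 are higher.

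Other integrin chains had 6 of 12 tested members called higher and 1 lower (1 to 2 lower, 7 kept), with a median log2 fold change of 0.42. ITGA2 and ITGA1, the alpha chains of collagen receptors, differed by 0.85 (SE 0.10, adjusted p = 6.20e-05) and by 0.74 (SE 0.14, adjusted p = 0.000979). ITGA4, the chain of a fibronectin and VCAM-1 receptor, was at 0.649 and 1.11 CPM in Vector and 6.31 and 6.02 CPM in B4-4 (log2 fold change 2.80, SE 0.41, adjusted p = 0.000247). It was higher with NA as well (log2 fold change 3.63, adjusted p = 0.00251), and its 2 effects were not called different (−0.83, adjusted p = 0.394). ITGA10, a further collagen-binding chain, was the 1 lower, at 54.2 and 63.2 against 6.05 and 6.87 CPM (log2 fold change −3.18, SE 0.19, adjusted p = 5.35e-07).

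Cell-cell junctions hold epithelial cells together through cadherins and nectins (adherens junctions), claudins (tight junctions) and desmosomal cadherins (desmosomes). The adherens junction list had 9 of 12 tested members called higher and none lower (0 to 1 lower, 7 kept), with a median log2 fold change of 0.55. CDH1, encoding E-cadherin, was at 199.96 and 192 CPM in Vector and 443 and 468 CPM in B4-4 (log2 fold change 1.22, SE 0.16, adjusted p = 0.000143), and CDH3, encoding P-cadherin, at 442 and 454 against 815 and 851 CPM (log2 fold change 0.89, SE 0.14, adjusted p = 0.000423). PVR, a nectin-like adhesion molecule, stood at 30.3 and 31.3 against 123 and 127 CPM (log2 fold change 2.02, SE 0.15, adjusted p = 1.85e-06). CTNND1, encoding the p120 catenin that holds cadherins at the surface, differed by 0.59 (SE 0.09, adjusted p = 0.000314). With NA no member of this list was called, against 7.16% of all genes tested. NECTIN4 was not called with EDTA: it lay at 10.8 and 11.7 CPM in Vector and 8.12 and 6.28 CPM in B4-4 (log2 fold change −0.64, SE 0.35, adjusted p = 0.165).

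Tight junction genes had 7 of 14 tested members called higher and 2 lower (4 to 10 higher, 6 kept), with a median log2 fold change of 0.78. CGN, encoding the plaque protein cingulin, was at 0.695 and 1.11 CPM in Vector and 14.2 and 13.6 CPM in B4-4 (log2 fold change 3.93, SE 0.51, adjusted p = 0.000207). MARVELD2, encoding tricellulin, differed by 0.86 (SE 0.11, adjusted p = 6.80e-05), and CLDN12, a claudin, by 0.96 (SE 0.15, adjusted p = 0.000371). TJP3, encoding the scaffold ZO-3, was lower, at 7.74 and 9.97 against 1.396 and 2.66 CPM (log2 fold change −2.13, SE 0.27, adjusted p = 8.00e-05). Desmosome genes had 3 of 9 tested members called higher and 3 lower (1 to 3 higher, 3 kept), with a median log2 fold change of 0.01 whose sign changes with the scaling. DSP, encoding desmoplakin (log2 fold change −0.85, SE 0.18, adjusted p = 0.00322), DSC3, a desmosomal cadherin (log2 fold change −0.78, SE 0.11, adjusted p = 0.000174), and PKP2 (log2 fold change −0.70, SE 0.13, adjusted p = 0.00140) were lower, while the plakophilin gene PKP3 was higher (log2 fold change 0.43, SE 0.10, adjusted p = 0.00560). PKP3 was not called without Vector EDTA 1 (adjusted p = 0.0804) or B4-4 EDTA 2 (0.101).

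Genes with large called differences were taken from those with a mean of at least 5 CPM over the 4 libraries and no overlap between the 2 sides. In each direction 15 were taken by size, and genes whose call was kept when each library was left out came first. A larger difference whose call was not kept can therefore be missing. The rule itself sets these apart, so their values are a description. FST, encoding the activin inhibitor follistatin, was at 0.602 and 0.620 CPM in Vector and 107 and 112 CPM in B4-4 (log2 fold change 7.47, SE 1.06, adjusted p = 0.00154). INHBA, encoding the activin subunit that follistatin binds, was at 0.788 and 0.886 against 23.3 and 22.8 CPM (log2 fold change 4.77, SE 0.56, adjusted p = 0.000148). DKK1, a secreted Wnt inhibitor, was at 0.371 and 0.443 against 34.3 and 34.7 CPM (log2 fold change 6.38, SE 0.87, adjusted p = 0.000829). These 3 secreted regulators were below 1 CPM in both Vector libraries. F3, encoding tissue factor, the receptor that starts coagulation, was at 14.6 and 11.4 against 511 and 519 CPM (log2 fold change 5.31, SE 0.34, adjusted p = 8.04e-06).

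CSF3, CLCF1 and CXCL1 encode secreted cytokines. CSF3, the granulocyte colony-stimulating factor, was at 1.07 and 0.798 CPM in Vector and 40.2 and 45.7 CPM in B4-4 (log2 fold change 5.52, SE 0.73, adjusted p = 0.000749). CLCF1, a cytokine of the interleukin-6 family, was at 0.463 and 0.177 against 9.88 and 9.53 CPM (log2 fold change 4.90, SE 0.79, adjusted p = 0.000961), and the neutrophil chemokine gene CXCL1 at 4.31 and 4.21 against 94.9 and 98.8 CPM (log2 fold change 4.51, SE 0.83, adjusted p = 0.00504). KLK7, a skin protease, was at 0.278 and 0.399 against 11.5 and 10.1 CPM (log2 fold change 4.96, SE 0.95, adjusted p = 0.00460). PI3, encoding the elastase inhibitor elafin, was at 3.43 and 4.61 against 102 and 109.7 CPM (log2 fold change 4.71, SE 0.59, adjusted p = 0.000668). All 5 were below 5 CPM in both Vector libraries. The others were PDCD1LG2, encoding the PD-1 ligand PD-L2 (log2 fold change 5.07), LCP1, an actin-bundling protein (log2 fold change 4.57), KRT6B, a stress keratin (log2 fold change 4.04), CGN, SPOCD1 (log2 fold change 5.18) and ZNF365 (log2 fold change 4.04). LCP1 was higher with NA too (log2 fold change 1.99, adjusted p = 0.0166), and ZNF365 was lower there (log2 fold change −1.22, adjusted p = 0.0174).

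On the lower side, CYP1A1 and CYP1B1 led and are described with the aryl hydrocarbon receptor. CAMK2B, a calcium/calmodulin-dependent kinase subunit, was at 121 and 130.4 CPM in Vector and 1.91 and 2.18 CPM in B4-4 (log2 fold change −5.93, SE 0.79, adjusted p = 0.00113). LAPTM5, a lysosomal membrane protein, was at 82.3 and 74.98 against 4.29 and 3.83 CPM (log2 fold change −4.27, SE 0.19, adjusted p = 5.27e-08). TNS1, encoding the focal adhesion protein tensin-1, was at 51.7 and 55.5 against 3.46 and 3.04 CPM (log2 fold change −4.04, SE 0.44, adjusted p = 0.000131). TSC22D3, a glucocorticoid-induced leucine zipper gene, was at 167 and 181 against 13.5 and 15.7 CPM (log2 fold change −3.58, SE 0.31, adjusted p = 4.20e-05). TP73, a transcription factor of the p53 family, was at 10.01 and 11.8 against 0.621 and 0.692 CPM (log2 fold change −4.04, SE 0.51, adjusted p = 0.000126). The others were ETNK2, an ethanolamine kinase (log2 fold change −4.41), FGR, a kinase of the SRC family (log2 fold change −4.14), SNED1 (log2 fold change −4.11), SCNN1B, a subunit of the epithelial sodium channel (log2 fold change −3.60), TPPP, a tubulin-binding protein (log2 fold change −3.51), EPHB6, an ephrin receptor (log2 fold change −3.46), ANKS1B (log2 fold change −3.45) and the histone gene H3C15 (log2 fold change −3.69). TPPP was higher in B4-4 with NA (log2 fold change 0.96, adjusted p = 0.0234). TP73, SNED1, H3C15, TPPP and ANKS1B overlap tested genes on the other strand, and the strand setting of the counting is not given, so reads of such overlapping genes cannot be told apart.

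CYP1A1 and CYP1B1, targets of the aryl hydrocarbon receptor, had the 2 largest lower differences among the named genes. The receptor (AHR) pairs with ARNT on DNA with the core GCGTG, and its target genes encode cytochrome P450 enzymes and the feedback inhibitors TIPARP and AHRR. CYP1A1 was at 125 and 135 CPM in Vector and 1.09 and 1.01 CPM in B4-4 (log2 fold change −6.94, SE 0.86, adjusted p = 0.000828), and CYP1B1 at 641 and 469.5 against 6.52 and 5.64 CPM (log2 fold change −6.51, SE 0.37, adjusted p = 5.58e-06). TIPARP was at 325 and 282 against 37.1 and 35.9 CPM (log2 fold change −3.05, SE 0.20, adjusted p = 1.70e-06). AHRR was at 1.76 and 1.595 against 0.465 and 0.266 CPM (log2 fold change −2.17, SE 0.49, adjusted p = 0.00380), and its call was lost without B4-4 EDTA 2 (adjusted p = 0.0503). All 4 were lower in both B4-4 libraries than in both Vector libraries. AHR itself was not called (log2 fold change −0.29, SE 0.19, adjusted p = 0.232), and ARNT was lower by a smaller amount (log2 fold change −0.58, SE 0.11, adjusted p = 0.00113). NQO1, a quinone reductase shared with the NRF2 list, was higher (log2 fold change 0.49, SE 0.08, adjusted p = 0.000633). The list had 1 of 9 tested members called higher and 5 lower, with a median log2 fold change of −1.05. AHR, ARNT and AHRR were named after their values were seen, and CYP1B1 and TIPARP overlap antisense genes.

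CYP1A1, CYP1B1 and TIPARP were higher in B4-4 with NA. CYP1A1 was at 6.502 and 8.23 CPM in Vector NA and 54.4 and 78.4 CPM in B4-4 NA (log2 fold change 3.17, SE 0.67, adjusted p = 0.0395). CYP1B1 was at 36.1 and 36.0 against 156 and 177 CPM (log2 fold change 2.21, SE 0.30, adjusted p = 0.00540), and TIPARP at 85.0 and 77.6 against 232 and 159 CPM (log2 fold change 1.26, SE 0.19, adjusted p = 0.00382). The test of the difference between the EDTA and NA effects gave −10.11 for CYP1A1 (adjusted p = 0.00112), −8.72 for CYP1B1 (adjusted p = 1.38e-05) and −4.32 for TIPARP (adjusted p = 4.23e-06). NQO1 was higher with NA as with EDTA (log2 fold change 0.83, adjusted p = 0.000280), and AHRR was not called with NA (log2 fold change 1.90, adjusted p = 0.145). Over the list, 4 of 9 tested members were called higher with NA and none lower. Addback EDTA held 141 and 68.5 CPM of CYP1B1 and 109.8 and 78.0 CPM of TIPARP, between the 2 groups compared for both genes. The 250 bases before the starts of 3 of these genes (RefSeq, GRCh38.p14) are shown because they hold the core, with GCGTG or its complement CACGC in capitals: CYP1A1 (chr15:74725529-74725778, minus strand), 1 of 3 windows of TIPARP (chr3:156674340-156674589, plus strand) and 1 of 2 windows of AHRR (chr5:322360-322609, plus strand).
CYP1A1: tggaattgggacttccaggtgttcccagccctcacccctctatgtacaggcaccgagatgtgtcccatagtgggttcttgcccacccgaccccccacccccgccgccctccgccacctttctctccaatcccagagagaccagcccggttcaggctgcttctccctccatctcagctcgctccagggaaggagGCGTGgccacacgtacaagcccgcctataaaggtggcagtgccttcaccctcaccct
TIPARP: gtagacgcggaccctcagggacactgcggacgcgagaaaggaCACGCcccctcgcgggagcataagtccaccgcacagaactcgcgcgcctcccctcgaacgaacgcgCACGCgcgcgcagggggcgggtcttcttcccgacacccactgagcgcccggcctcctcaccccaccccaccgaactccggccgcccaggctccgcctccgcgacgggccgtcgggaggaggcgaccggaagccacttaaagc
AHRR: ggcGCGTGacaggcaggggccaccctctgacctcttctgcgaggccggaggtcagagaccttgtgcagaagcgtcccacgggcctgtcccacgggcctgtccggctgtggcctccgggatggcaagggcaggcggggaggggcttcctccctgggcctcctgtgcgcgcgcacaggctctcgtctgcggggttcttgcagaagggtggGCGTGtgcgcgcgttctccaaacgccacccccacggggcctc
The core is short and common: 47.8% of windows of all tested genes hold it, 41.3% of those of genes called at least 2-fold higher and 43.6% of those at least 2-fold lower. Its first base lies 57 bases before the start in CYP1A1, 208 and 142 bases in TIPARP, and 247 and 42 bases in AHRR. CYP1B1 is not in the table.

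Squamous differentiation genes build the cornified envelope of stratified epithelia, and kallikreins are the proteases that shed it. The cornified envelope list had 9 of 18 tested members called higher and 1 lower (4 to 10 higher, 1 to 4 lower, 4 kept), with a median log2 fold change of 0.81, and 18 of its 28 genes passed the filter on low counts. Its summed level was not higher in B4-4, at 408.6 and 418.7 CPM in Vector EDTA and 394.1 and 401.2 CPM in B4-4 EDTA. IVL, encoding the envelope precursor involucrin, had 7 counts over the 2 Vector libraries and 263 over the 2 B4-4 libraries (log2 fold change 5.39, SE 0.76, adjusted p = 0.000258). SPRR2D, a small proline-rich envelope protein, had 7 against 186 counts (log2 fold change 4.89, SE 0.72, adjusted p = 0.000348). SPRR2E was at 0 in both Vector libraries and had 23 counts in B4-4. It was at least 6.66-fold higher by the lower limit of its exact counting interval. SPRR2E was named after its values were seen. GRHL3, a transcription factor of the epidermal barrier, was the 1 lower (log2 fold change −0.92, SE 0.20, adjusted p = 0.00382). The SPRR2 genes are near-identical copies that may share reads.

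The window before the IVL start (chr1:152908296-152908545, plus strand) holds the AP-1 motif 123 bases upstream, here in its complementary orientation TGAGTCA, in capitals.
IVL: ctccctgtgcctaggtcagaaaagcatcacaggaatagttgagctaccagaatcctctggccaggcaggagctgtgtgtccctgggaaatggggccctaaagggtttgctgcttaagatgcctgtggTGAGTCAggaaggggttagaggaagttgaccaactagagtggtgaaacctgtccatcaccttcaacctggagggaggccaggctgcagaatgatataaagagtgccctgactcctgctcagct
Among genes called at least 2-fold higher, 88 of 1155 windows hold the AP-1 motif, which is 7.62%, beside 4.48% of those at least 2-fold lower and 3.89% of all. These shares are given with no test.

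Kallikreins and their inhibitor had 5 of 7 tested members called higher and none lower (3 to 6 higher, 2 kept), with a median log2 fold change of 3.27. KLK5, the protease that activates other kallikreins, was at 0.324 and 0.355 CPM in Vector and 2.95 and 3.73 CPM in B4-4 (log2 fold change 3.27, SE 0.61, adjusted p = 0.00161). KLK10 had 1 count in Vector and 78 in B4-4, a ratio of 90.4 (95% counting interval 15.8 to 3614), and its call was lost without Vector EDTA 1 (adjusted p = 0.0566). SPINK5, the kallikrein inhibitor, was also higher (log2 fold change 1.20, SE 0.30, adjusted p = 0.00706), and its call was lost without Vector EDTA 2 (adjusted p = 0.0655). With NA, KLK5 (log2 fold change −1.595) and SPINK5 (log2 fold change −1.74) were called lower in B4-4, and the difference of the effects was called in both (4.87 and 2.93).

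Keratins had 7 of 13 tested members called higher and 1 lower (3 to 9 higher, 0 to 2 lower, 3 kept), with a median log2 fold change of 0.54. KRT6A, a keratin of activated keratinocytes, was at 1011 and 1066 CPM in Vector and 3836 and 4060.0 CPM in B4-4 (log2 fold change 1.93, SE 0.11, adjusted p = 2.51e-07), and its near copies KRT6B and KRT6C differed by 4.04 and 2.44, though reads may be split among the 3. The basal keratins KRT5 (4874 and 5055 against 5592 and 5974 CPM) and KRT14 (1482 and 1599.9 against 1546 and 1657 CPM) were not called, with log2 fold changes of 0.22 and 0.06. KRT15, a keratin of basal and progenitor cells, was lower, at 918 and 932 against 121 and 130.4 CPM (log2 fold change −2.88, SE 0.56, adjusted p = 0.00596), and was not called without B4-4 EDTA 1 (adjusted p = 0.0543).

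S100 genes had 4 of 13 tested members called higher and 3 lower (1 to 7 lower, 5 kept), with a median log2 fold change of −0.36. The 3 lower were S100A8 (log2 fold change −1.78, adjusted p = 0.00204), S100A9 (log2 fold change −2.35, adjusted p = 0.00581) and S100A13 (log2 fold change −0.43, adjusted p = 0.0334). These 3 were named after their values were seen. S100A10, a partner of annexin A2, was at 319.9 and 352 CPM in Vector and 652 and 681 CPM in B4-4 (log2 fold change 0.99, SE 0.16, adjusted p = 0.000549). S100A7, psoriasin, was at 0 in both Vector libraries and had 85 counts in B4-4. It was at least 26.1-fold higher by the lower limit of its exact counting interval. Secreted defence and mucin genes had 7 of 11 tested members called higher and 1 lower (4 to 8 higher, 0 to 1 lower, 4 kept), with a median log2 fold change of 1.24. LCN2, the iron-siderophore-binding protein lipocalin-2, was at 0 in both Vector libraries and had 116 counts in B4-4. It was at least 35.85-fold higher by the same limit. RNASE7, an antimicrobial ribonuclease of skin, differed by 2.94 (SE 0.26, adjusted p = 6.52e-06), and SAA2, an acute-phase protein, by 1.604 (SE 0.34, adjusted p = 0.00281). MUC20, a mucin named after its values were seen, was in the other direction, with 31 counts in Vector and 1 in B4-4.

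Ligands and receptors of the EGF family had 6 of 10 tested members called higher and 1 lower (1 to 2 lower, 6 kept), with a median log2 fold change of 0.84. NRG1, the neuregulin that binds ERBB3, was at 2.96 and 3.06 CPM in Vector and 16.9 and 18.3 CPM in B4-4 (log2 fold change 2.55, SE 0.19, adjusted p = 2.51e-06). EREG, encoding epiregulin, was at 11.03 and 7.84 against 51.3 and 50.7 CPM (log2 fold change 2.43, SE 0.33, adjusted p = 0.000389), and TGFA at 34.5 and 34.3 against 135 and 136 CPM (log2 fold change 1.98, SE 0.20, adjusted p = 2.38e-05). EPGN, encoding epigen, differed by 0.75 (SE 0.13, adjusted p = 0.000576). With NA, EREG (log2 fold change −1.55) and EPGN (log2 fold change −1.37) were called lower in B4-4, and the difference of the effects was 3.98 for EREG (adjusted p = 0.000453) and 2.12 for EPGN (adjusted p = 1.49e-05).

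Genes that respond to ERK signalling had 10 of 20 tested members called higher and 2 lower (4 to 14 higher, 6 kept), with a median log2 fold change of 1.03. DUSP4, an ERK phosphatase, was at 51.6 and 55.6 CPM in Vector and 202 and 217 CPM in B4-4 (log2 fold change 1.96, SE 0.31, adjusted p = 0.00124), against −1.32 with NA. CCND1, encoding cyclin D1, was at 82.3 and 77.8 against 295 and 301 CPM (log2 fold change 1.90, SE 0.15, adjusted p = 2.86e-06). EPHA2, an ephrin receptor, was at 39.3 and 44.3 against 175 and 188 CPM (log2 fold change 2.12, SE 0.33, adjusted p = 0.00120). The transcription factor gene ETV1 was lower (log2 fold change −0.95, SE 0.16, adjusted p = 0.000533). Immediate early factors, which cells induce within minutes of a stimulus, had 2 of 17 tested members called higher and 3 lower (0 to 3 higher, 2 to 12 lower, 2 kept), with a median log2 fold change of −1.57. JUND (log2 fold change −2.03, SE 0.34, adjusted p = 0.00194) and NR4A3 (log2 fold change −3.27, SE 0.65, adjusted p = 0.00175) were lower. KLF6 (log2 fold change 2.13) and KLF10 (log2 fold change 1.29) were higher, and neither was called when any one of the 4 libraries compared was left out (adjusted p from 0.0699 to 0.122).

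Targets of YAP and TAZ, transcriptional coactivators that respond to cell tension, had 12 of 19 tested members called higher and 2 lower (1 to 2 lower, 12 kept), with a median log2 fold change of 0.92. CCN2, encoding connective tissue growth factor, was at 3.24 and 4.48 CPM in Vector and 24.1 and 26.5 CPM in B4-4 (log2 fold change 2.71, SE 0.23, adjusted p = 4.87e-06). FJX1 was at 11.8 and 12.9 against 50.8 and 53.6 CPM (log2 fold change 2.08, SE 0.11, adjusted p = 1.65e-07), and AJUBA, a LIM protein of the Hippo pathway, differed by 1.48 (SE 0.09, adjusted p = 6.00e-07). YAP acts through TEAD factors, whose motif GGAATG occurs 3 times in the 250 bases before the CCN2 start (chr6:131951373-131951622, minus strand), in capitals.
CCN2: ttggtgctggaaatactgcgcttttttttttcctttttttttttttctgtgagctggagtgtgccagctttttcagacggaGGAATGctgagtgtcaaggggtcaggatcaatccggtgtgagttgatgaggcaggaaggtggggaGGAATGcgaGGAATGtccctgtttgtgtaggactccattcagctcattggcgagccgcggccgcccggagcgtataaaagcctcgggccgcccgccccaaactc
The copies begin 169, 104 and 95 bases before the start. Of all windows 11.5% hold at least 1, as do 14.4% of the windows of genes at least 2-fold higher and 10.9% of those at least 2-fold lower.

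Actin cytoskeleton genes, many driven by the serum response factor SRF, had 19 of 21 tested members called higher and none lower, with a median log2 fold change of 0.93. TPM4, a tropomyosin, was at 349 and 314 CPM in Vector and 1226 and 1197 CPM in B4-4 (log2 fold change 1.87, SE 0.22, adjusted p = 0.000103). MYH9, the heavy chain of non-muscle myosin, was at 819 and 869 against 2221 and 2248 CPM (log2 fold change 1.404, SE 0.12, adjusted p = 6.59e-06), and the actin cross-linkers FLNA and ACTN4 differed by 1.49 (SE 0.13, adjusted p = 7.25e-06) and by 1.398 (SE 0.14, adjusted p = 1.80e-05). The other members printed here were named after their values were seen: ACTB, encoding beta-actin, at 2322 and 2491 against 10305 and 10774 CPM (log2 fold change 2.13, SE 0.31, adjusted p = 0.000999), MYL9, a myosin light chain (log2 fold change 3.63), and TAGLN, encoding transgelin (log2 fold change 3.23). With NA, 2 of the 21 were called higher and none lower, beside 3.38% higher and 3.78% lower of all genes tested. The 2 B4-4 NA libraries lay apart there, with a summed level of 11640 and 19980 CPM, beside 12420 and 12520 CPM in Vector NA. ACTB, often used as a reference gene, thus differed between B4-4 and Vector with EDTA.

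**Figure D3:**
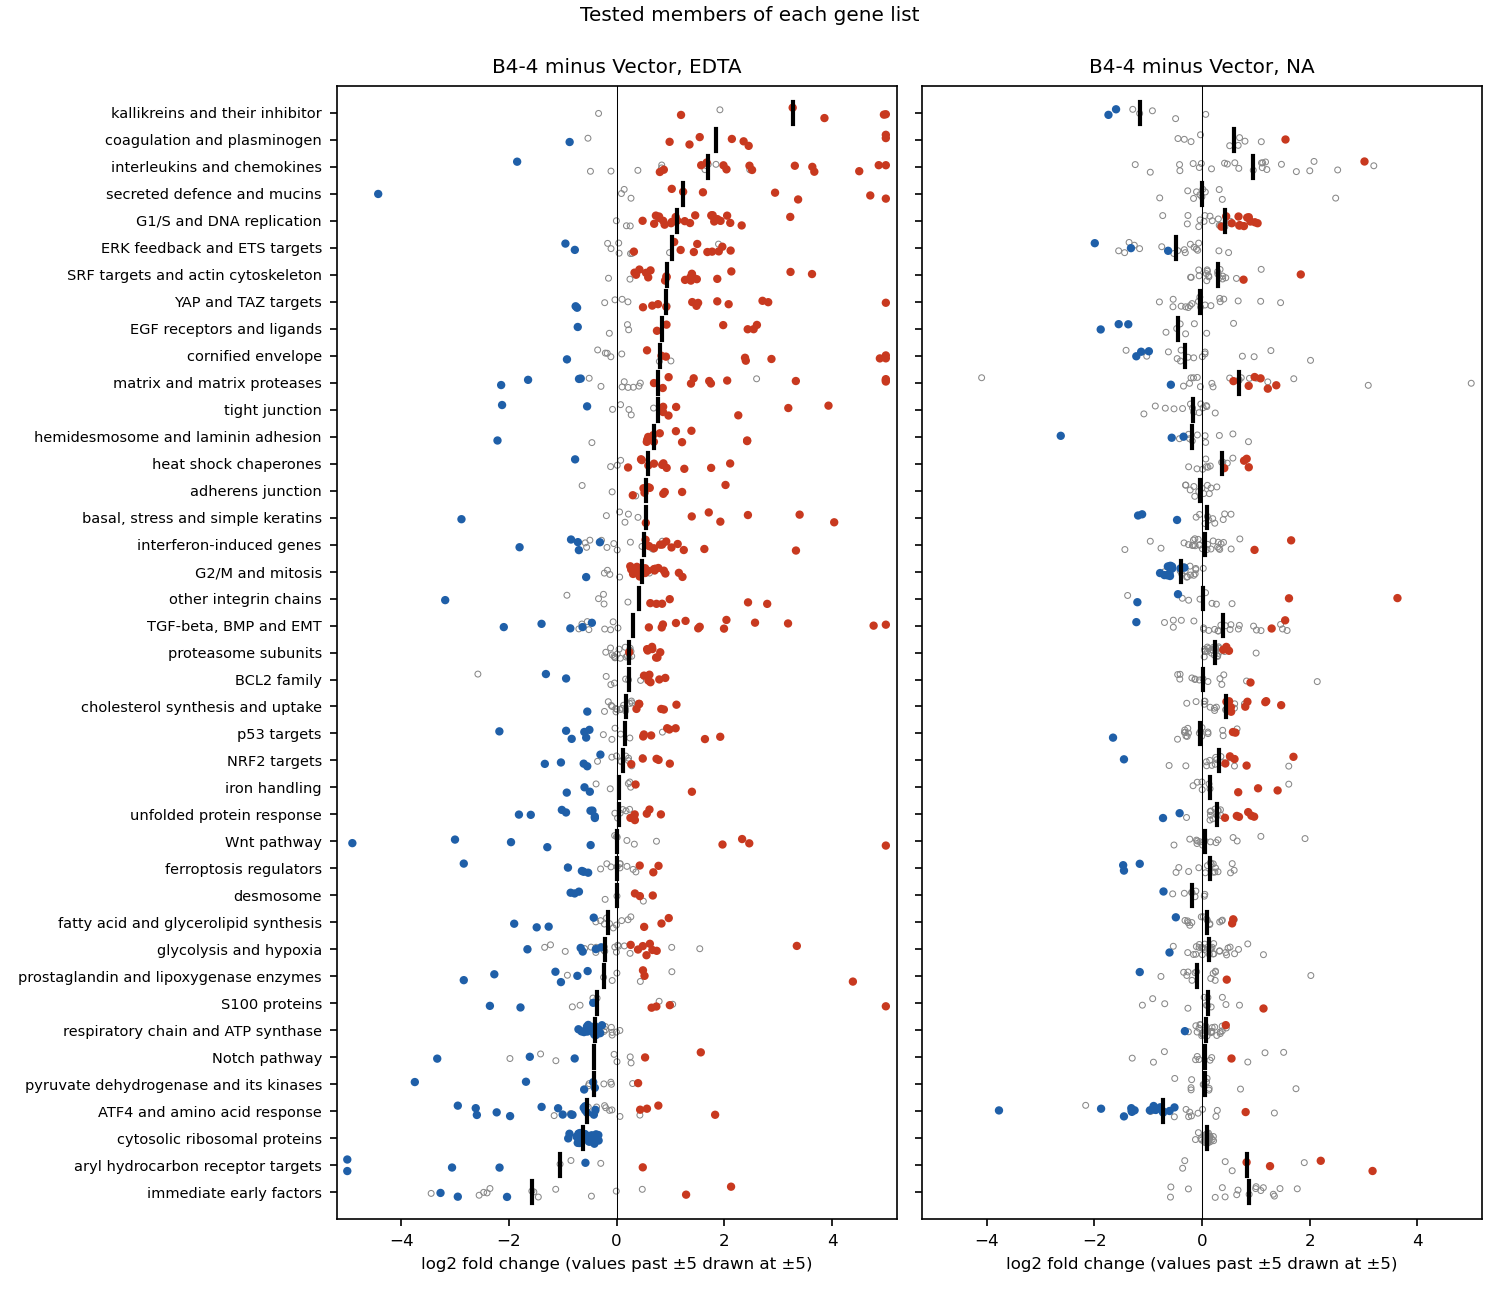
Log2 fold change of B4-4 against Vector (horizontal axes) for each tested member of the gene lists (rows), with EDTA on the left and NA on the right; red and blue points were called higher and lower, open points were not called, and the black bar is the list's median. With EDTA the SRF and actin list has 19 of 21 members called higher and the ribosomal list 30 of 30 called lower, while with NA none of the 30 ribosomal genes was called.

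Genes of TGF-beta and BMP signalling and of epithelial-mesenchymal transition had 13 of 26 tested members called higher and 5 lower (2 to 8 lower, 11 kept), with a median log2 fold change of 0.31. SKIL, a repressor of SMAD signalling, was at 10.6 and 7.40 CPM in Vector and 39.7 and 34.3 CPM in B4-4 (log2 fold change 2.04, SE 0.19, adjusted p = 1.08e-05). TGFBR2, a TGF-beta receptor, differed by 0.86 (SE 0.11, adjusted p = 6.63e-05). SNAI2, encoding the transition factor SLUG, was lower, at 285 and 261 against 62.9 and 65.1 CPM (log2 fold change −2.09, SE 0.27, adjusted p = 0.000296). The members with the largest higher values, FST and INHBA, belong to the activin branch.

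Matrix genes and proteases had 12 of 26 tested members called higher and 4 lower (2 to 6 lower, 12 kept), with a median log2 fold change of 0.78. TNC, encoding tenascin-C, was at 12.6 and 14.1 CPM in Vector and 129 and 139 CPM in B4-4 (log2 fold change 3.33, SE 0.23, adjusted p = 2.10e-06), and THBS1, encoding thrombospondin-1, at 255 and 255 against 841 and 875 CPM (log2 fold change 1.75, SE 0.17, adjusted p = 1.58e-05). TIMP3, an inhibitor of metalloproteases, differed by 2.05 (SE 0.09, adjusted p = 8.33e-08). The collagenase gene MMP1 and the stromelysin gene MMP10 were at 0 in Vector with 33 and 28 counts in B4-4. They were at least 9.79-fold and 8.225-fold higher by the lower limits of their exact counting intervals. LAMB1, a laminin chain that is not part of laminin-332, was lower (log2 fold change −1.64, SE 0.08, adjusted p = 1.25e-07). MMP1 and MMP10 were named after their values were seen.

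Coagulation and plasminogen genes had 8 of 10 tested members called higher and 1 lower (1 to 2 lower, 7 kept), with a median log2 fold change of 1.84. Beside F3, PLAU, encoding urokinase, was at 77.4 and 78.2 CPM in Vector and 332 and 354 CPM in B4-4 (log2 fold change 2.14, SE 0.34, adjusted p = 0.00152), and PLAUR, its receptor, at 13.9 and 14.1 against 69.9 and 83.2 CPM (log2 fold change 2.45, SE 0.20, adjusted p = 4.72e-06). SERPINB2, a urokinase inhibitor, had 3 counts in Vector and 175 in B4-4, a ratio of 67.6 (95% counting interval 22.7 to 331); its call was lost without Vector EDTA 1 (adjusted p = 0.0572) or Vector EDTA 2 (0.0535). SERPINB5, encoding maspin, differed by 1.35 (SE 0.10, adjusted p = 2.79e-06). PLAT, the tissue plasminogen activator, was the 1 lower (log2 fold change −0.87, SE 0.17, adjusted p = 0.00145). The urokinase side and the tissue activator thus had opposite signs. PLAU and SERPINB2 were named after their values were seen.

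Interleukins and chemokines had 14 of 25 tested members called higher and 1 lower (5 to 20 higher, 1 to 2 lower, 6 kept), with a median log2 fold change of 1.70. IL1B, encoding interleukin-1 beta, was at 5.51 and 4.48 CPM in Vector and 59.5 and 64.6 CPM in B4-4 (log2 fold change 3.63, SE 0.39, adjusted p = 0.000156), and LIF, a cytokine of the interleukin-6 family, at 2.64 and 2.61 against 10.03 and 10.8 CPM (log2 fold change 1.98, SE 0.22, adjusted p = 3.54e-05). IL6, named after its values were seen, had 2 counts in Vector and 25 in B4-4, a ratio of 14.5 (95% counting interval 3.61 to 126). TSLP, an epithelial cytokine, was the 1 lower (log2 fold change −1.85, SE 0.41, adjusted p = 0.00328). Interferon-induced genes were mixed, with 11 of 28 tested members called higher and 5 lower (2 to 5 lower, 8 kept), with a median log2 fold change of 0.51. IFIT5 (log2 fold change 1.63, SE 0.26, adjusted p = 0.000504), IFIT3 (log2 fold change 1.25, SE 0.21, adjusted p = 0.000503) and the RNA sensor RIGI (log2 fold change 1.14, SE 0.14, adjusted p = 5.78e-05) were higher. IRF1, a transcription factor induced by interferon, was lower with EDTA, at 41.0 and 44.8 against 13.2 and 11.4 CPM (log2 fold change −1.80, SE 0.15, adjusted p = 4.03e-06), while with NA it was the higher one in B4-4 (log2 fold change 1.66, adjusted p = 9.98e-05).

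DNA replication genes were higher in B4-4. The G1/S list had 24 of 27 tested members called higher and none lower, with a median log2 fold change of 1.13. RRM2, the ribonucleotide reductase subunit made in S phase, was at 113 and 105 CPM in Vector and 410.2 and 418 CPM in B4-4 (log2 fold change 1.93, SE 0.14, adjusted p = 2.18e-06). UHRF1, which copies DNA methylation at the fork, was at 38.0 and 41.1 against 158 and 170.1 CPM (log2 fold change 2.05, SE 0.10, adjusted p = 9.97e-08). GINS1, part of the replicative helicase, differed by 1.78 (SE 0.14, adjusted p = 2.75e-06), and FEN1, a flap endonuclease, by 1.27 (SE 0.10, adjusted p = 2.86e-06). With NA 12 of the 27 were called higher and none lower, beside 3.38% higher and 3.78% lower of all genes tested. The effects on FEN1 were not called different (0.23, adjusted p = 0.231).

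Most mitotic genes tested were called higher with EDTA. The G2/M list had 19 of 26 tested members called higher and 1 lower (12 to 21 higher, 1 to 2 lower, 13 kept), with a median log2 fold change of 0.47 with EDTA, against none of 26 tested members called higher and 12 lower, with a median log2 fold change of −0.39 with NA, and 21 of the 26 had an EDTA effect called above the NA effect. Over all genes tested, 3.78% were called lower with NA and 14.4% had an EDTA effect called above the NA effect. KIF23, a kinesin of cell division, was at 69.7 and 65.1 CPM in Vector and 155 and 160.0 CPM in B4-4 (log2 fold change 1.22, SE 0.11, adjusted p = 6.20e-06), with −0.40 under NA. AURKB, a mitotic kinase, differed by 1.16 (SE 0.11, adjusted p = 1.09e-05), CCNA2, encoding cyclin A2, by 0.91 (SE 0.11, adjusted p = 6.66e-05), and BUB1B, a checkpoint kinase, by 0.88 (SE 0.11, adjusted p = 6.44e-05). Replication-dependent histone genes, looked at after the data were seen, went the other way: of 41 tested, none was higher and 30 were lower, with a median of −1.80. Their summed level was 450.1 and 466.5 CPM in Vector EDTA and 146.6 and 149 CPM in B4-4 EDTA. These histone messages largely lack poly(A) tails, so their level in poly(A) libraries also depends on the selection, and its part in these values was not tested.

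**Figure D4:**
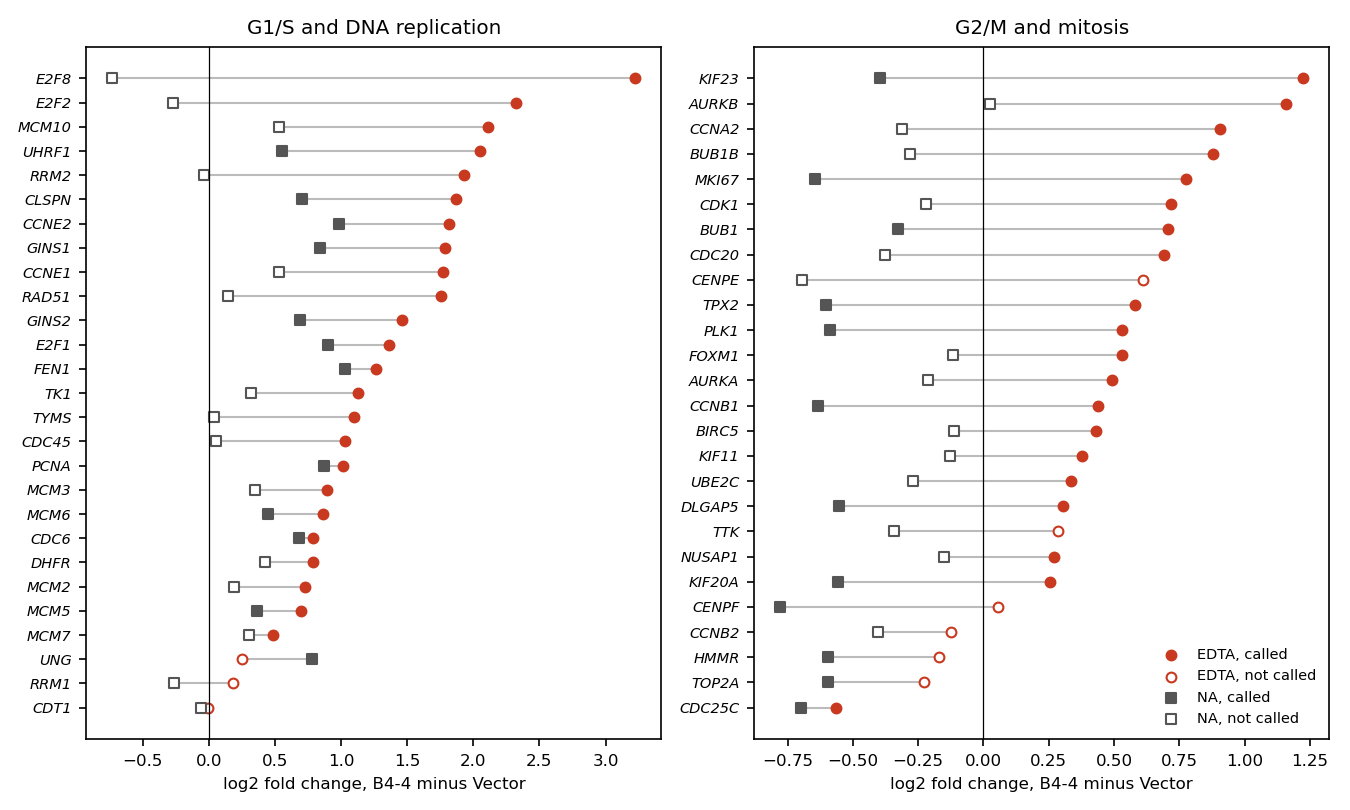
Log2 fold change of B4-4 against Vector (horizontal axes) for the tested G1/S and G2/M genes, with EDTA as red circles and NA as grey squares, filled where called. For KIF23 the EDTA value is 1.22 and the NA value −0.40, and for FEN1 the values are 1.27 and 1.03.

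Ribosomal protein genes were lower throughout. All 30 tested cytosolic ribosomal genes were called lower, with a median of −0.62, whereas 20.4% of all genes were called lower. Most but not all of these calls were kept when each library was left out in turn. RPS6, a protein of the small subunit, was at 4378 and 4442 CPM in Vector and 2395 and 2337 CPM in B4-4 (log2 fold change −0.90, SE 0.09, adjusted p = 1.77e-05), and RPS18 at 1560.4 and 1764 against 934 and 879 CPM (log2 fold change −0.87, SE 0.11, adjusted p = 6.66e-05). RPL10A (log2 fold change −0.74, SE 0.09, adjusted p = 5.88e-05) and RPLP0 (log2 fold change −0.70, SE 0.09, adjusted p = 0.000113) of the large subunit were lower too. With NA none of the 30 was called, and the difference of the effects was called below 0 in 29 of them. Ribosomal genes have many processed copies that may share reads. Respiratory chain genes had none of 30 tested members called higher and 21 lower (13 to 25 lower, 13 kept), with a median log2 fold change of −0.40, led by COX5B, a subunit of cytochrome oxidase (log2 fold change −0.71, SE 0.11, adjusted p = 0.000460) and by UQCRC2 (log2 fold change −0.60, SE 0.09, adjusted p = 0.000181) and CYC1 (log2 fold change −0.53, SE 0.09, adjusted p = 0.000805) of complex III. Proteasome genes had 8 of 25 tested members called higher and none lower (7 to 15 higher, 0 to 1 lower, 7 kept), with a median log2 fold change of 0.23, among them PSMD11 (log2 fold change 0.76, SE 0.09, adjusted p = 5.55e-05), PSMD1 (log2 fold change 0.66, SE 0.09, adjusted p = 0.000103), PSMD12 (log2 fold change 0.73, SE 0.10, adjusted p = 0.000168) and PSMB2 (log2 fold change 0.66, SE 0.10, adjusted p = 0.000250).

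In the ATF4 and amino acid response more genes were lower than higher in B4-4. The list had 4 of 31 tested members called higher and 16 lower (1 to 5 higher, 11 kept), with a median log2 fold change of −0.55. PHGDH, the first enzyme of serine synthesis, was at 191 and 212 CPM in Vector and 31.0 and 34.7 CPM in B4-4 (log2 fold change −2.61, SE 0.16, adjusted p = 5.19e-07), and PSAT1, the next enzyme, at 311 and 289.9 against 140.3 and 143 CPM (log2 fold change −1.09, SE 0.11, adjusted p = 1.92e-05). ASNS, which makes asparagine, was at 212 and 221 against 36.5 and 35.2 CPM (log2 fold change −2.59, SE 0.27, adjusted p = 8.27e-05). ALDH1L2, a mitochondrial folate enzyme, differed by −1.0 (SE 0.15, adjusted p = 0.000293). ATF4 itself was lower (log2 fold change −0.58, SE 0.13, adjusted p = 0.00332), as was DDIT3, encoding the stress factor CHOP (log2 fold change −2.23, SE 0.54, adjusted p = 0.0104), whose call was lost without Vector EDTA 2, B4-4 EDTA 1 or B4-4 EDTA 2 (adjusted p from 0.0524 to 0.0905). Both were named after their values were seen. PSPH, the last enzyme of serine synthesis, was not called (log2 fold change −0.13, adjusted p = 0.349). The 4 higher members were CHAC1, which degrades glutathione (log2 fold change 1.83), the transcription factor genes CEBPB (log2 fold change 0.78) and ATF5 (log2 fold change 0.44), and STC2, a secreted glycoprotein (log2 fold change 0.56). With NA, CHAC1 (log2 fold change −3.77), CEBPB (log2 fold change −0.90) and STC2 (log2 fold change −1.30) were called lower and ATF5 higher. PSPH and these 4 were named after their values were seen. With NA the list had 1 of 31 tested members called higher and 17 lower, with a median log2 fold change of −0.73; PSAT1 (log2 fold change −0.90) and ALDH1L2 (log2 fold change −0.97) were lower there by amounts not called different from those with EDTA, and the EDTA effect on PHGDH was the larger (−1.88, adjusted p = 0.000102).

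Unfolded protein response genes, which act in the endoplasmic reticulum, had 6 of 20 tested members called higher and 8 lower (3 to 8 higher, 5 to 8 lower, 7 kept), with a median log2 fold change of 0.04 whose sign changes with the scaling. DNAJB9, a co-chaperone, was at 72.8 and 59.5 CPM in Vector and 18.5 and 19.1 CPM in B4-4 (log2 fold change −1.81, SE 0.15, adjusted p = 4.71e-06), and HERPUD1, which helps degrade misfolded proteins, at 208 and 216 against 68.8 and 71.7 CPM (log2 fold change −1.59, SE 0.18, adjusted p = 6.32e-05). XBP1, a transcription factor of this response, differed by −1.02 (SE 0.10, adjusted p = 1.47e-05). HSPA5, encoding the chaperone BiP and named after its values were seen, differed by −0.40 (SE 0.11, adjusted p = 0.00909), a call lost without Vector EDTA 2 (adjusted p = 0.064) or B4-4 EDTA 1 (0.0905). With NA, DNAJB9 (log2 fold change 0.97), HERPUD1 (log2 fold change 0.69) and HSPA5 (log2 fold change 0.92) were called higher in B4-4. The chaperone CALR was higher with EDTA (log2 fold change 0.56, SE 0.09, adjusted p = 0.000482). Cytosolic heat shock chaperones had 11 of 15 tested members called higher and 1 lower, with a median log2 fold change of 0.59. HSPA1A, the inducible HSP70, was at 165 and 180.3 against 394 and 432 CPM (log2 fold change 1.26, SE 0.10, adjusted p = 2.75e-06), HSP90AA1 differed by 0.93 (SE 0.11, adjusted p = 5.27e-05), the co-chaperone BAG3 by 0.87 (SE 0.11, adjusted p = 7.82e-05) and HSPH1 by 0.69 (SE 0.09, adjusted p = 8.55e-05). HSPA1A has a near-identical copy and its reads may be shared.

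Genes of cell death and survival went both ways. p53 targets had 8 of 20 tested members called higher and 6 lower, with a median log2 fold change of 0.16: SFN, encoding 14-3-3 sigma, was at 283 and 304 CPM in Vector and 1074 and 1155 CPM in B4-4 (log2 fold change 1.93, SE 0.11, adjusted p = 2.51e-07), while BTG2, an antiproliferative gene, was at 182 and 188 against 41.8 and 40.1 CPM (log2 fold change −2.18, SE 0.14, adjusted p = 8.88e-07). TP53I3 differed by 1.097 (SE 0.13, adjusted p = 5.15e-05) and AEN, a nuclease, by 0.98 (SE 0.17, adjusted p = 0.000698). The BCL2 family had 6 of 15 tested members called higher and 2 lower (1 to 7 higher, 1 to 4 lower, 2 kept), with a median log2 fold change of 0.22. BCL2L1, encoding BCL-XL, which blocks apoptosis, was at 38.8 and 39.3 against 73.2 and 73.1 CPM (log2 fold change 0.90, SE 0.17, adjusted p = 0.00134). BCL2L11, encoding BIM, the activator of anoikis in mammary cells, was lower, at 55.8 and 51.4 against 22.2 and 20.9 CPM (log2 fold change −1.31, SE 0.28, adjusted p = 0.00408). The pore-forming BAX (log2 fold change 0.61, SE 0.14, adjusted p = 0.00445) and BAK1 (log2 fold change 0.79, SE 0.19, adjusted p = 0.00588) were higher, and both calls were lost without Vector EDTA 1 (adjusted p = 0.0629 and 0.0573).

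Ferroptosis is death by iron-dependent lipid peroxidation, and its regulators had 3 of 19 tested members called higher and 5 lower (1 to 5 higher, 3 to 7 lower, 4 kept), with a median log2 fold change of 0.01 whose sign changes with the scaling. PROM2, which promotes iron export in ferritin-bearing vesicles, was not called with EDTA: it was at 4.73 and 4.48 CPM in Vector and 5.64 and 5.75 CPM in B4-4 (log2 fold change 0.31, SE 0.16, adjusted p = 0.140). With NA it was lower in B4-4, at 40.4 and 40.8 against 13.6 and 15.8 CPM (log2 fold change −1.46, SE 0.14, adjusted p = 0.000234), and the difference of the effects was 1.77 (adjusted p = 0.000173). GPX4, which reduces lipid peroxides, was at 144 and 163 against 81.5 and 82.9 CPM with EDTA (log2 fold change −0.90, SE 0.18, adjusted p = 0.00224). ALOX15B, a lipoxygenase, was at 223 and 242 against 29.6 and 35.5 CPM (log2 fold change −2.84, SE 0.28, adjusted p = 6.87e-05). AIFM2, encoding the suppressor FSP1, was higher (log2 fold change 0.68, SE 0.13, adjusted p = 0.00112), and NCOA4, the receptor that delivers ferritin for breakdown, was lower (log2 fold change −0.53, SE 0.09, adjusted p = 0.000523).

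Iron genes had 2 of 10 tested members called higher and 3 lower (1 to 4 higher, 3 kept), with a median log2 fold change of 0.05 whose sign changes with the scaling. TFRC, the transferrin receptor, was at 170.1 and 156 CPM in Vector and 429 and 431 CPM in B4-4 (log2 fold change 1.399, SE 0.14, adjusted p = 1.53e-05), and with NA the value was 1.405 (adjusted p = 0.000261). FTH1, the ferritin heavy chain, was at 919 and 1071 against 692 and 718 CPM (log2 fold change −0.50, SE 0.10, adjusted p = 0.00197), and was higher in B4-4 with NA (log2 fold change 0.67, adjusted p = 0.00372). PCBP2, an iron chaperone and RNA-binding protein, differed by −0.92 (SE 0.11, adjusted p = 6.07e-05), and STEAP3, an iron reductase, by −0.60 (SE 0.17, adjusted p = 0.0124). STEAP3 was not called without Vector EDTA 2, B4-4 EDTA 1 or B4-4 EDTA 2 (adjusted p from 0.053 to 0.113). NRF2 targets had 5 of 20 tested members called higher and 5 lower (2 to 8 higher, 5 kept), with a median log2 fold change of 0.13. NFE2L2, encoding NRF2, was at 322 and 275 against 118 and 119 CPM (log2 fold change −1.33, SE 0.12, adjusted p = 7.46e-06), AKR1C3, an aldo-keto reductase of a family with near-identical members, differed by −1.03 (SE 0.21, adjusted p = 0.00288), and TKT, a pentose phosphate enzyme, by −0.54 (SE 0.12, adjusted p = 0.00284).

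Some pathway lists were called at a share below the 43.4% of all genes: immediate early factors at 29.4%, glycolysis and hypoxia at 39.4%, cholesterol at 30.4%, fatty acid synthesis at 38.9%, ferroptosis at 42.1%, Notch at 41.7% and proteasome at 32%. Others lay not far above it: iron, NRF2 and pyruvate dehydrogenase at 50%, the BCL2 family at 53.3% and S100 at 53.8%. Glycolysis and hypoxia genes had 8 of 33 tested members called higher and 5 lower (4 to 11 higher, 1 to 16 lower, 5 kept), with a median log2 fold change of −0.22; ANGPTL4, a lipase inhibitor, was at 47.0 and 54.0 CPM in Vector and 484 and 544 CPM in B4-4 (log2 fold change 3.35, SE 0.34, adjusted p = 0.000122), the phosphofructokinase PFKP was higher (log2 fold change 0.75, SE 0.08, adjusted p = 3.74e-05) and its relative PFKM lower (log2 fold change −0.63, SE 0.10, adjusted p = 0.000353), and pyruvate kinase PKM was higher (log2 fold change 0.62, SE 0.10, adjusted p = 0.000391). Pyruvate dehydrogenase genes had 1 of 12 tested members called higher and 5 lower (0 to 2 higher, 2 to 8 lower, 2 kept), with a median log2 fold change of −0.42. The inhibitory kinase PDK2 was lower (log2 fold change −1.68, SE 0.19, adjusted p = 3.94e-05), as were PDK4 (log2 fold change −3.75, SE 0.84, adjusted p = 0.0123), PDHX (log2 fold change −0.40, SE 0.10, adjusted p = 0.00535) and PDPR (log2 fold change −0.43, SE 0.13, adjusted p = 0.0145). The call of PDK4 was lost without either B4-4 EDTA library (adjusted p = 0.0778 and 0.0816) and that of PDPR without Vector EDTA 2 (0.107) or B4-4 EDTA 2 (0.118).

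Cholesterol genes had 6 of 23 tested members called higher and 1 lower (3 to 10 higher, 1 to 3 lower, 4 kept), with a median log2 fold change of 0.17 with EDTA and 9 of 23 tested members called higher and none lower, with a median log2 fold change of 0.45 with NA. HMGCS1, which makes the precursor of mevalonate, differed by 1.11 (SE 0.20, adjusted p = 0.00150) with EDTA and by 1.18 with NA (adjusted p = 0.00905). SQLE, the squalene epoxidase (log2 fold change 0.42, SE 0.09, adjusted p = 0.00315), and LSS, which closes the sterol ring (log2 fold change 0.83, SE 0.12, adjusted p = 0.000222), were higher, and SREBF2, the gene of their transcription factor, was lower (log2 fold change −0.54, SE 0.08, adjusted p = 0.000307). Fatty acid genes had 3 of 18 tested members called higher and 4 lower (1 to 5 higher, 3 to 9 lower, 4 kept), with a median log2 fold change of −0.16. ACSS2, which makes acetyl-CoA from acetate (log2 fold change −1.90, SE 0.11, adjusted p = 4.89e-07), the acyl-CoA synthetase ACSL1 (log2 fold change −1.48, SE 0.14, adjusted p = 8.54e-06) and the phosphatidate phosphatase LPIN1 (log2 fold change −1.26, SE 0.16, adjusted p = 0.000114) were lower, and ACLY, which makes acetyl-CoA from citrate, was higher (log2 fold change 0.97, SE 0.18, adjusted p = 0.00116). Prostaglandin and lipoxygenase genes had 3 of 15 tested members called higher and 6 lower (3 to 7 lower, 4 kept), with a median log2 fold change of −0.24; LTA4H, a leukotriene hydrolase, was lower (log2 fold change −0.73, SE 0.09, adjusted p = 6.78e-05), and ALOX5AP, the helper protein of 5-lipoxygenase, had 8 counts in Vector and 150 in B4-4 (log2 fold change 4.39, SE 0.65, adjusted p = 0.000236).

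Notch genes had 2 of 12 tested members called higher and 3 lower (1 to 4 higher, 2 kept), with a median log2 fold change of −0.41, and Wnt genes 4 of 15 tested members called higher and 5 lower (3 to 5 lower, 7 kept), with a median log2 fold change of 0.01 whose sign changes with the scaling. NRARP, a feedback inhibitor induced by Notch, was at 251 and 246 CPM in Vector and 27.5 and 21.9 CPM in B4-4 (log2 fold change −3.33, SE 0.33, adjusted p = 9.41e-05), and the ligand gene JAG1 differed by −0.78 (SE 0.12, adjusted p = 0.000312). NOTCH2, a receptor (log2 fold change 0.53, SE 0.13, adjusted p = 0.00617), and LFNG, which modifies Notch receptors (log2 fold change 1.56, SE 0.40, adjusted p = 0.00801), were higher. NOTCH2 had an adjusted p of 0.05 without B4-4 EDTA 1, and LFNG of 0.0638 without Vector EDTA 1 and 0.0657 without B4-4 EDTA 2. The Wnt ligand genes WNT7A (log2 fold change 2.33, SE 0.26, adjusted p = 3.17e-05) and WNT9A (log2 fold change 2.46, SE 0.34, adjusted p = 0.000152) and the feedback ubiquitin ligase gene RNF43 (log2 fold change 1.97, SE 0.21, adjusted p = 2.35e-05) were higher. WNT3A had 78 counts in Vector and 2 in B4-4.

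Markers of other cell types that moved did so in both directions. FOXA1, a luminal transcription factor, was at 2.69 and 2.75 CPM in Vector and 13.96 and 12.8 CPM in B4-4 (log2 fold change 2.30, SE 0.27, adjusted p = 4.86e-05), the 1 of 4 tested luminal markers that was called. The fibroblast markers DCN (log2 fold change −2.28, SE 0.49, adjusted p = 0.00489) and COL1A1 (log2 fold change −0.65, SE 0.21, adjusted p = 0.0233) were lower, as were the smooth muscle myosin gene MYH11 (log2 fold change −1.17, SE 0.44, adjusted p = 0.0466) and PECAM1 (log2 fold change −2.78, SE 0.62, adjusted p = 0.00907), and the leukocyte marker CSF1R was higher (log2 fold change 0.77, SE 0.19, adjusted p = 0.00633). The other leukocyte marker tested, CD14, was not called (log2 fold change −0.34, adjusted p = 0.658) and was named after its values were seen. The call of COL1A1 was lost without Vector EDTA 2 (adjusted p = 0.155) or either B4-4 EDTA library (0.0911 and 0.0988), that of PECAM1 without either B4-4 EDTA library (0.0704 and 0.0721), that of CSF1R without B4-4 EDTA 1 (0.0572), and that of MYH11 without any of the 4 libraries compared or either Vector NA library (from 0.0661 to 0.22). DCN stood at 10.6 and 8.38 CPM in Vector, so these markers were low next to the basal ones.

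The NA libraries compare the same derivatives without the EDTA label and share no library with the EDTA comparison. There 1128 genes were called (7.16%), 532 higher (3.38%) and 596 lower (3.78%) in B4-4, and the median size of a change was 0.25. With upper-quartile scaling 605 were higher and 564 lower. The count depended on single libraries: leaving out Vector NA 1 gave 81 calls, Vector NA 2 gave 84 and B4-4 NA 1 gave 3319, with 648 and 643 without B4-4 EDTA 1 or 2, and 664 and 665 without Addback NA 1 or 2. Of the genes called with EDTA, 10.5% were also called with NA, and of those called with NA, 63.7% were also called with EDTA. These 719 shared genes had the same direction in 430 cases and opposite directions in 289, of which 165 were higher with EDTA and lower with NA. ITGB4, ITGA4, LCP1, TFRC, HMGCS1, PHGDH and ASNS were among the named genes with the same direction, and CYP1A1, CYP1B1, TIPARP, IRF1, KLK5 and EREG among those with opposite directions. The difference between the EDTA and NA effects was itself called for 4249 genes (27%), 2268 with the EDTA value above the NA value and 1981 below. The count was 2429 and 2364 without Vector NA 1 or 2, and 2513 and 2462 without B4-4 EDTA 1 or 2. With upper-quartile scaling these became 1805 above and 2497 below.

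**Figure D5:**
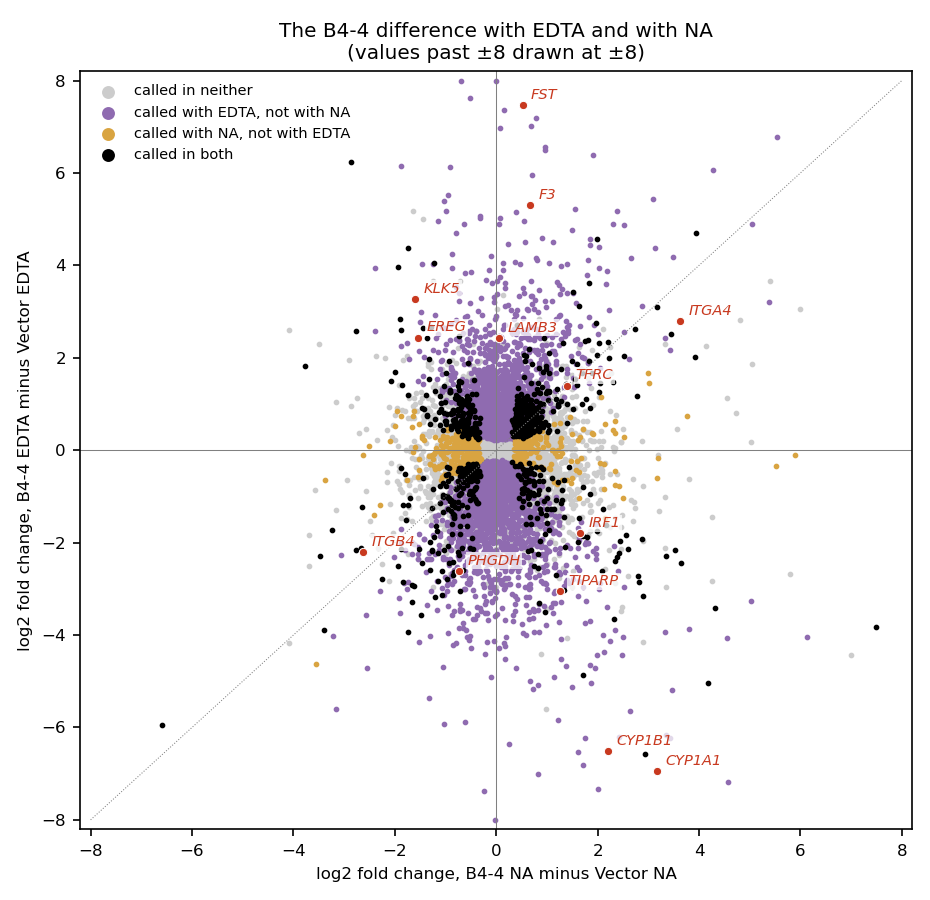
Log2 fold change of B4-4 against Vector with EDTA (vertical axis) by that with NA (horizontal axis), 1 point per gene tested, coloured by where it was called; the dotted line marks equal values. ITGB4 lies near the line at −2.21 and −2.62, while CYP1A1 is at −6.94 with EDTA and 3.17 with NA.

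Addback EDTA libraries give a further level for each gene; that comparison shares the B4-4 EDTA libraries with the main one, so the values are only set side by side. Against B4-4 EDTA, 2217 genes were called (14.1%), 1030 higher (6.54%) and 1187 lower (7.54%) in Addback. With upper-quartile scaling 1232 were higher and 1046 lower. That count was 692 and 735 without B4-4 EDTA 1 or 2, 1126 without Addback EDTA 1, 2527 without Addback EDTA 2, the library of the other lane, and 3756 and 3670 without B4-4 NA 1 or 2. FST was at 0.877 and 7.56 CPM in Addback EDTA and F3 at 56.1 and 114 CPM, beside 107 and 112 and 511 and 519 CPM in B4-4 EDTA. CDH1 was at 169.9 and 269 CPM, LAMB3 at 629 and 689.6 CPM and ACTB at 6664 and 7178 CPM. LAMB3 lay within 2-fold of Vector EDTA and below both B4-4 EDTA libraries. PHGDH was at 67.9 and 52.1 CPM in Addback, nearer to B4-4 (31.0 and 34.7) than to Vector (191 and 212), and RRM2 was at 299 and 389 CPM, above both Vector libraries. CSF3, KLK7 and CXCL1 were not called between Addback and B4-4 (adjusted p = 0.405, 0.838 and 0.879).

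Other genes named above also overlap a tested gene on the other strand, with the same limit on telling their reads apart: ITGB4, ITGA6, CLCF1, CDH3, GRHL3, RNASE7, NFE2L2, AIFM2, PCBP2, FTH1, STEAP3, ALDH1L2, DNAJB9, HSP90AA1, TP53I3, BCL2L1, BCL2L11, CCND1, EPHA2, ACTN4, TPM4, TIMP3, LAMB1, THBS1, IRF1, IFIT3, PDHX, ANGPTL4, PFKM, LSS, SREBF2, HMGCS1, ACSS2, FEN1, KIF23, CCNA2, RPS6, RPS18, FOXA1, MYH11, CSF1R, PLAU, DDIT3 and TAGLN.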

How the data were processed

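Poly(A) RNA from 12 libraries of detached MCF10-A cells was prepared with a stranded kit and sequenced as 150 bp paired reads, per the labels' protocols. The authors deposited raw counts per gene, with Ensembl gene IDs and 1 column per library. Per the submitters' processing notes, TopHat2 2.1.1, SAMtools 1.4.1 and featureCounts 1.5.3 were used, and the builds hg19, hg38 and GRCh38 are named without their roles; the sources used here give neither the strand setting nor the annotation. Symbols were matched by gene ID for 57392 of 58233 genes, and gene coordinates come from GENCODE release 29 (GRCh38).

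Groups came from the labels. Counts were fitted in edgeR 4.0.16 (R 4.3.3; TMM factors, filterByExpr over the 6 groups, robust quasi-likelihood) over all 12 libraries without a replicate block, which left 15749 genes; p-values were adjusted by Benjamini-Hochberg over all of them, and a gene was called at an adjusted p under 0.05. The scripts were tested on simulated counts. Alternatives were DESeq2 1.42.0, other scaling factors, no filter, other spreads and leaving out each library. Library totals of 15685376 to 22156173 counts limit genes with few counts. The counting intervals (exact, 95%), given by their lower limit where Vector had no counts, cover counting error only.

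Named genes are ITGB4, ITGA6, NECTIN4 and PROM2, 15 large called differences in each direction, and up to 4 called members of each of 47 gene lists. The large differences were taken by size among genes of at least 5 CPM whose 2 sides did not overlap, symbols of clones and noncoding names left out. List members were taken by the smallest p. In both choices, genes whose call was kept without each library came first. Genes outside this rule are marked in the text, and some genes are not reported here. The comparison, the members and the lists were chosen with earlier results of these data known. Promoters are from the RefSeq table, 250 bases before to 50 after the start, and 11224 of 15742 genes matched.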

Additional observations from a re-analysis of the deposited data

Results flagged for a closer look

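The effect of B4-4 against Vector differed between EDTA and NA for 4249 of the genes tested, by the test of the difference itself. Over all genes tested that is 27%, and 289 genes were called in opposite directions with EDTA and with NA. Among the 208 named genes this difference was called for 164, and in 21 of these the gene was called in opposite directions under EDTA and NA. Most named genes were picked by their EDTA call, and 203 of the 208 were called with EDTA. The share among them is thus largely set by that choice and is no result about these genes. The values below are the EDTA log2 fold change minus the NA one.

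Of these 21 genes, the aryl hydrocarbon receptor targets CYP1A1, at −10.11, and CYP1B1, at −8.72, stood farthest below 0. TPPP, encoding a tubulin-binding protein, stood at −4.47 and the receptor target TIPARP at −4.32. The interferon-induced factor IRF1 stood at −3.46 and the antiproliferative gene BTG2 at −2.80. Chaperone and degradation genes of the endoplasmic reticulum were DNAJB9 at −2.78, HERPUD1 at −2.28 and HSPA5 at −1.32. FTH1, the ferritin heavy chain, stood at −1.17 and the pentose phosphate gene TKT at −0.98.

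In the other direction ZNF365 stood at 5.26, KLK5, a kallikrein, at 4.87 and SPINK5, its inhibitor, at 2.93. The EGF family ligand EREG stood at 3.98 and EPGN at 2.12, and the ERK phosphatase DUSP4 at 3.28. The kinesin KIF23 stood at 1.62. Adhesion genes were PLEC at 1.36, the collagen receptor chain ITGA2 at 1.29 and COL17A1 at 0.93. Each of these 21 genes was called in both comparisons.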

How the results depend on the processing

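With EDTA, the count of 6831 genes stayed within 1.5 times under the other scaling factors, no filter, DESeq2 (5712 genes), the 2 groups compared alone (8369) and the spread without the loosely agreeing pairs (9204), and ran from 4383 to 8169 when each library was left out. The count of 1128 genes with NA became 1874 with no filter and 6 with the 2 groups alone, and ran from 81 to 3319 over the libraries left out. The count of 4249 for the difference ran from 2364 to 5515; upper-quartile scaling moved its median over all genes from −0.01 to −0.12. The 2217 genes of Addback against B4-4 became 3739 with the spread of the tighter pairs and 1185 with the library number series as a term, and ran from 692 to 3756. Where a side keeps 1 library, that library is assumed to vary like the other groups. Leaving out B4-4 NA 1 or 2 put KRT15 with NA at −1.41 or 0.56 and LAMB3 at 0.55 or −0.71, the latter of each opposite in sign to its value with all libraries (−0.11 and 0.06), which was not called; the cause was not tested. Same-numbered libraries did not deviate together in every pair of groups (correlations from −0.17 to 0.305), so the numbers were not taken as pairs; with a replicate block the calls were 6889 with EDTA, 1118 with NA, 4260 for the difference and 2192 for Addback. Low counts limit IVL, the kallikreins, MMP1, LCN2 and S100A7.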

Other observations

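On the first principal component of the levels (34.6% of the variance), Vector EDTA libraries stood at −24.7 and −25.6 and B4-4 EDTA libraries at 40.5 and 40.5. Vector NA (5.13 and 5.197) and B4-4 NA (2.17 and 5.36) lay between them. The 2 Addback EDTA libraries were apart from each other, at −5.53 and 15.4, and they are labelled with different sequencing lanes.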
